A study of Homo sapiens with 54 samples.

Results

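PEA1 is a line of high-grade serous ovarian carcinoma cells that the labels call platinum sensitive, and its transcriptome was measured with and without carboplatin. The tested libraries were 3 from PEA1 cells held in carboplatin for 8 h, at 80 µM per the labels (the series text gives the unit as mM), and 3 from PEA1 cells held in it for 24 h. They were set against untreated PEA1 replicates 1 and 2, which gave 8 libraries of the 54 in the series. The series holds 6 lines in 3 pairs, each sampled untreated and at both times in 3 replicates, and PEA2 is the platinum-resistant partner of PEA1. All PEA1 cells grew in RPMI medium with serum and were plated 48 h before treatment. Untreated samples carry a 0 h label, while the series text speaks of a vehicle control collected at 24 h. All treated cultures were at later passages than the untreated ones, so treatment and passage cannot be told apart. The third untreated PEA1 library was left out by the rule that defined the comparison, because it listed 8635 genes and resembled PEA2.

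Carboplatin binds DNA bases through its platinum atom and links them within and between strands. Such lesions stall replication forks, are removed by nucleotide excision repair, the Fanconi anaemia pathway and homologous recombination, and in cells with working p53 raise the transcription of p53 targets. Cells also bind platinum with metallothioneins, which are small cysteine-rich metal-binding proteins, and with glutathione. Serous ovarian cancer cells are known for expression of the lineage factor PAX8.

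Expression was given as TPM, which corrects for transcript length and sums to the same total in every library. This unit keeps no read depth, so depth is unknown here and no counting error can be given. TPM were rescaled so that the median ratio between libraries was 1 over 10357 genes, and all levels below are rescaled TPM unless called a share. A log2 change is the mean of the treated libraries minus that of the untreated libraries of log2(rescaled TPM + 1), and this scale makes changes of low genes look smaller. It is given with the standard error (SE) and the Benjamini-Hochberg adjusted p of limma over 14172 tested genes, with 6 treated and 2 untreated libraries. "Rose", "fell" and "called" mean an adjusted p under 0.05. The p-values measure the spread between these samples, which the series text places on 3 different days. TPM measures shares of RNA, so fewer expressing cells and less RNA per cell cannot be told apart.

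The treated libraries were much more alike than the untreated ones. On log2 values the 6 treated libraries correlated with one another at 0.92 to 0.97, and the 2 untreated libraries at 0.72. The treated libraries listed 13420 to 15113 genes above 0 with a median of 14646, while untreated replicate 1 listed 15486 and untreated replicate 2 listed 11754. There were 446 genes at 10 or more in all 6 treated libraries that were listed at 0 in untreated replicate 2 only, among them subunits that every respiring cell uses, so a 0 in that library can be a failed estimate. List counts are therefore also given without untreated replicate 2, and gene values for part of the named genes only. That fit gives the lone untreated library the spread of the treated groups. A gene named without such a value may have lost its call there.

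**Figure D1:**
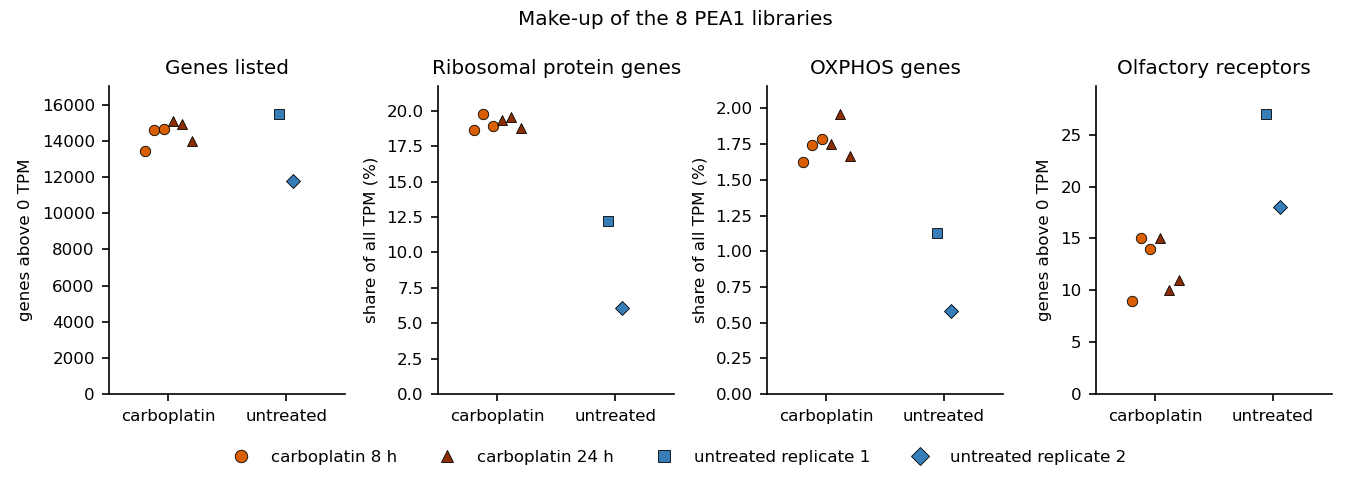
The 8 PEA1 libraries by number of genes above 0 TPM, share of TPM in cytosolic ribosomal protein genes, share in nuclear-encoded oxidative phosphorylation (OXPHOS) genes and number of olfactory receptor genes above 0 TPM. Circles are carboplatin 8 h, triangles carboplatin 24 h, and blue marks the 2 untreated libraries; ribosomal protein shares lay at 18.7% to 19.8% in treated and at 12.2% and 6.06% in untreated libraries.

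Carboplatin-treated PEA1 cells differed from untreated cells in a large part of the transcriptome. Of the 14172 genes, 2271 rose, which is 16% of the genes tested, and 2280 fell, which is 16.1%. Without untreated replicate 2, 971 genes rose, which is 7.04% of 13787 tested, and 1397 fell, which is 10.1%. Both fits called 880 of the same genes higher and 1089 of the same genes lower. Without rescaling the median change of all genes moved to -0.19 against 0.11 with it, and 748 genes rose, which is 5.28%, while 3151 fell, which is 22.2%. List counts without rescaling below are to be read beside these shares. Those with all 8 libraries and rescaling are to be read beside 16% and 16.1%. The early and late contrasts were of similar extent. At 8 h 1485 genes rose, which is 10.5%, and 1835 fell, which is 12.9%, while at 24 h 1500 rose, which is 10.6%, and 1710 fell, which is 12.1%. Without untreated replicate 2 these became 717 higher (5.2%) and 1153 lower (8.36%) at 8 h, and 848 higher (6.15%) and 1201 lower (8.71%) at 24 h. Values of the 6 treated and 2 untreated libraries did not overlap for 20.9% of all genes in the higher direction and 21.4% in the lower. These comparisons share the same 2 untreated libraries.

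Metallothionein genes were among the clearest rises. Of 6 tested metallothionein genes 4 rose and 0 fell, with a median change of 2.21 against 0.11 over all genes, and 3 rose without untreated replicate 2. The members of this family are similar in sequence and the counting could have divided reads between them. To show what the promoters of the rising members hold, the 300 bases around the start of MT1X and MT2A are printed from RefSeq (GRCh38.p14), 250 before the start and 50 after it, with matches to the metal response element core, TGCGCNC or TGCACNC on either strand, in capitals. This core is the letters bound by the zinc-sensing factor MTF1. Promoters were matched by symbol for 6 of 8 genes looked up, and MT1M and MT1E were not among them.
MT1X, chr16:56682220-56682519, plus strand: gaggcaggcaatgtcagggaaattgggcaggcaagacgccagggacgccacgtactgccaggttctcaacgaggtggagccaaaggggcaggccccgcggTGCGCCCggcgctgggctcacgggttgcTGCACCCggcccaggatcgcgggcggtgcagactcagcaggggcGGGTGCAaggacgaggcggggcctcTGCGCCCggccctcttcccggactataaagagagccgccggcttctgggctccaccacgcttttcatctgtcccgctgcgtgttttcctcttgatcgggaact
MT2A, chr16:56608334-56608633, plus strand: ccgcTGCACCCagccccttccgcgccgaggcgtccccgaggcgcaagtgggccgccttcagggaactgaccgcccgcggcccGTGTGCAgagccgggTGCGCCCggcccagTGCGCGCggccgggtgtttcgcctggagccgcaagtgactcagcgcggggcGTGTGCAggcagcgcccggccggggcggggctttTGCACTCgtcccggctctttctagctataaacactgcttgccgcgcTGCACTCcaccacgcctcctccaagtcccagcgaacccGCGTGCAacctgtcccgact
The MT1X promoter holds 4 matches and that of MT2A holds 8, and 29.5% of 35114 RefSeq promoters of this length hold at least 1. A match describes letters only.

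MT1X lay at 51.0 at its lowest, 59.1 at the median and 89.2 at its highest in treated libraries, against 7.2 and 0 in untreated libraries. The groups did not overlap, and MT1X rose by 4.51 on the log2 scale (SE 0.68, adjusted p = 0.0047), or 2.94 without untreated replicate 2. MT1E spanned 119 to 180 with a median of 167 in treated libraries and stood at 34.7 and 16.3 in untreated libraries, a change of 2.67 (SE 0.31, adjusted p = 0.0024) and of 2.09 without untreated replicate 2. MT1M spanned 21.7 to 62.6 in treated libraries, against 6.41 and 0 in untreated libraries, and rose by 3.85 (adjusted p = 0.0083). Every treated library thus exceeded both untreated libraries for these 3 genes. MT2A, the most abundant member, spanned 620 to 1132 with a median of 879 in treated libraries, against 521 and 343 in untreated libraries. Its rise of 1.07 (adjusted p = 0.020) became 0.72 without untreated replicate 2, with an adjusted p of 0.11. MT1F and MT1G were not called, with changes of 1.76 and -0.87.

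Among genes of inflammatory signalling more rose than fell with all 8 libraries and rescaling, beside 16% of all genes that rose and 16.1% that fell. Of 23 tested NF-kB and cytokine genes 7 rose and 2 fell, and 7 rose and 0 fell without untreated replicate 2, of which 5 were the same genes. NF-kB is the transcription factor that drives many cytokine genes. CSF2, which encodes the growth factor GM-CSF, spanned 74.8 to 115 with a median of 93.3 in treated libraries, against 21.8 and 24.0 in untreated libraries. It rose by 1.94 (SE 0.21, adjusted p = 0.0023) with all 8 libraries and by 1.95 without untreated replicate 2. IL6, a cytokine, and CXCL1, a chemokine that attracts neutrophils, are named here after their values were seen. IL6 spanned 165 to 247 with a median of 192 in treated libraries, against 77.3 and 96.6 in untreated libraries, a rise of 1.17 (adjusted p = 0.0083). CXCL1 spanned 1154 to 1377 with a median of 1270 in treated libraries, against 651 and 731 in untreated libraries, a rise of 0.89 (adjusted p = 0.014) that missed the threshold without rescaling (adjusted p = 0.081). For all 3 genes each treated library exceeded both untreated libraries. CXCL3, another neutrophil chemokine, spanned 12.7 to 29.6 in treated libraries, against 7.05 and 0 in untreated libraries, and rose by 2.97, or 1.42 without untreated replicate 2. Without rescaling 3 of the 23 rose and 5 fell, beside 5.28% and 22.2% of all genes.

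The 2 members that fell with all 8 libraries were IL1B and BCL3. IL1B, which encodes interleukin 1 beta, was listed at 0 in all 6 treated libraries, against 6.81 and 9.35 in untreated libraries (adjusted p = 0.0016). BCL3, a nuclear cofactor of NF-kB, lay at 0.51 to 3.2 in treated libraries, against 5.98 and 20.4 in untreated libraries, and fell by 2.48 on the log2 scale (adjusted p = 0.017). To show the letters shared by the chemokine and cytokine promoters, those of CXCL1, CXCL3 and IL6 are printed from RefSeq (GRCh38.p14) with matches to an NF-kB site (GGG, then any 2 bases, then TTTCC) on either strand in capitals.
CXCL1, chr4:73869143-73869442, plus strand: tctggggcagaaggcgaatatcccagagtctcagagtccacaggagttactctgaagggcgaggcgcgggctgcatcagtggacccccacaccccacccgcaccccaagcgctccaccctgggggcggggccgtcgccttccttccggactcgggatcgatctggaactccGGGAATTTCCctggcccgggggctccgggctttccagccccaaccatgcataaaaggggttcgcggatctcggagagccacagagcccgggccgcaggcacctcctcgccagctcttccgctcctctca
CXCL3, chr4:74038640-74038939, minus strand: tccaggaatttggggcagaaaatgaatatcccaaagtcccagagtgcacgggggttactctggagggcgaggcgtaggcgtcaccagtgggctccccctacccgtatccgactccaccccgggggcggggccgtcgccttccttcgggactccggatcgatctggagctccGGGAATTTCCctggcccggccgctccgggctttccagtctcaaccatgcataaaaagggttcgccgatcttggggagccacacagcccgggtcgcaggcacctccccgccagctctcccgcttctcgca
IL6, chr7:22726950-22727249, plus strand: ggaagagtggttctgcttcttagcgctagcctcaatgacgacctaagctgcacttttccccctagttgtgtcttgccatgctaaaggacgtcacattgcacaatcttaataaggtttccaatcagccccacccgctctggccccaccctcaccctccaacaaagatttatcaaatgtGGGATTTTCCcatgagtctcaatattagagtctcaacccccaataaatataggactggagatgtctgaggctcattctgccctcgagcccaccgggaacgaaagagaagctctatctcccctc
Each of the 3 holds 1 match, the CSF2 promoter window holds 0, and 1.91% of the 35114 promoters hold at least 1. Only members that rose were looked up, and not IL1B or BCL3, so a link of the site to the changes was not tested. The matched letters of CXCL1 and CXCL3 start at base 172 of each window.

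Nuclear long noncoding RNAs included steep declines, while several other RNAs of the list were higher. Of 22 tested genes of this list 4 fell and 7 rose, and 4 fell and 0 rose without untreated replicate 2. MALAT1, an abundant RNA of nuclear speckles, spanned 47.6 to 113 with a median of 64.8 in treated libraries, against 1199 and 973 in untreated libraries. NEAT1, the scaffold of paraspeckles, spanned 1.85 to 4.70 with a median of 2.78 in treated libraries, against 78.6 and 92.3 in untreated libraries. Both were far lower in every treated library than in either untreated library, by -3.99 (SE 0.32, adjusted p = 0.0014) for MALAT1 and -4.46 (SE 0.35, adjusted p = 0.0012) for NEAT1. Without untreated replicate 2 the changes were -4.19 and -4.39. KCNQ1OT1, an RNA antisense to KCNQ1 and therefore uncertain without a stated strand setting, lay at 0.22 to 0.63 in treated libraries, against 11.5 and 12.7 in untreated libraries. PVT1, named after its values were seen, spanned 3.53 to 8.03 in treated libraries, against 16.5 and 24.5 in untreated libraries. It fell by 1.62 on the log2 scale (adjusted p = 0.014). KCNQ1OT1 and PVT1 were not both called without untreated replicate 2. SNHG8, a host gene of small nucleolar RNAs, spanned 122 to 304 in treated libraries, against 94.6 and 0 in untreated libraries. Its change of 4.21 shrank to 0.87 without untreated replicate 2 and was not called there (adjusted p = 0.11).

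Among genes above 0 in both untreated libraries, without overlap and without the copy families set aside, the 10 called genes with the steepest declines were PSAPL1, NPIPB5, PRR26, NPIPB3, TCEB3C, IGFN1, ATN1, SMIM6, TNFRSF6B and BASP1P1, with changes of -6.04 to -5.02. All 10 were also called without untreated replicate 2, with log2 declines of 3.92 to 5.99. PRR26 spanned 0.82 to 1.72 with a median of 1.34 in treated libraries, against 140 and 96.4 in untreated libraries. IGFN1, which encodes a protein of muscle Z-discs, spanned 4.36 to 9.73 with a median of 6.43 in treated libraries, against 242 and 365 in untreated libraries. ATN1, a transcriptional corepressor, spanned 1.33 to 3.31 with a median of 1.61 in treated libraries, against 57.7 and 191 in untreated libraries. The groups stood more than an order of magnitude apart in each of these. TNFRSF6B, a decoy receptor for Fas ligand, lay at 0 to 4.21 in treated libraries, against 41.2 and 217 in untreated libraries. NPIPB5, NPIPB3 and TCEB3C have near-identical copies, and BASP1P1 is a pseudogene, so their reads may belong to other loci. At 8 h the steepest declines also included SLFNL1 (-5.24) and OR2AT4 (-5.18), and at 24 h CLDN24 (-5.30) and C3orf65 (-5.01). OR2AT4 is an olfactory receptor, and its library values were 5.78 to 29.5 after carboplatin, against 534 and 425 without it. Fewer olfactory receptor genes were listed in treated libraries, with 9 to 15 of 378 above 0, against 27 and 18 in untreated libraries. They took 0.0017% to 0.0060% of TPM in treated and 0.10% and 0.068% in untreated libraries (exact two-sided permutation p = 0.071, the smallest that 6 against 2 libraries can give). The part of such transcript-class shifts in the declines was not tested.

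The largest rises were much smaller without untreated replicate 2. By the same rule the 10 were HSPE1, NDUFA12, EIF3M, PYROXD1, DNAJA2, SNRPF, TIMM8B, PRDX4, ZFAS1 and PRDX3, with changes of 3.24 to 3.53. Without untreated replicate 2 their changes were 0.90 to 1.55, and 9 of the 10 were still called. HSPE1, the mitochondrial co-chaperonin, spanned 395 to 572 with a median of 507 in treated libraries, against 172 and 9.51 in untreated libraries. All treated values lay above both untreated values, and the untreated values themselves lay far apart. HSPE1 rose by 3.53 (SE 0.84, adjusted p = 0.019), or by 1.46 without untreated replicate 2. EIF3M, a subunit of a translation initiation factor, spanned 189 to 388 in treated libraries, against 114 and 5.28 in untreated libraries. PRDX4, an antioxidant peroxiredoxin, spanned 135 to 207 in treated libraries, against 66.1 and 3.99 in untreated libraries. The 8 h contrast added USMG5 (3.12), ODC1 (3.11), the first enzyme of polyamine synthesis, and MTHFD2 (3.09), and the 24 h contrast added ATP6V1C2 (3.34), TXNDC17 (3.16) and ACAT2 (3.11).

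Most genes of the cytosolic ribosome and of the respiratory chain rose with all 8 libraries. Of 78 ribosomal protein genes 67 rose and 0 fell, with a median change of 1.69 against 0.11 over all genes, and 56 rose and 0 fell without untreated replicate 2 (median 1.08). Without rescaling 58 rose and 0 fell (median 1.34). RPL23, a protein of the large subunit, spanned 3534 to 3963 with a median of 3712 in treated libraries, against 1403 and 269 in untreated libraries, a rise of 2.60 (SE 0.52, adjusted p = 0.011). The other leading members were RPL37A (2.84), RPS23 (2.78) and RPL37 (2.65). Ribosomal protein genes have many processed pseudogenes, so their individual levels are uncertain. The class took 18.7% to 19.8% of TPM with a median of 19.1% in treated libraries, against 12.2% and 6.06% in untreated libraries (exact two-sided permutation p = 0.071, the smallest possible here).

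Of 75 nuclear-encoded oxidative phosphorylation genes 64 rose and 1 fell, with a median change of 1.79, and without untreated replicate 2 45 rose and 2 fell, with a median of 1.09. Without rescaling 37 rose and 2 fell, with a median of 1.44. The 4 with the largest changes, COX5B, COX7B, ATP5O and NDUFB5, were listed at 0 in untreated replicate 2. COX5B, a subunit of cytochrome c oxidase, spanned 289 to 455 with a median of 347 in treated libraries, against 115 and 0 in untreated libraries, and its change of 5.05 became 1.57 without untreated replicate 2. COX7B changed by 0.99, ATP5O by 1.15 and NDUFB5 by 1.74 without that library, each still called. UQCRH, named after its values were seen as the single member that fell with all 8 libraries, lay at 0 to 3.51 in treated libraries, against 30.5 and 54.2 in untreated libraries, and it is uncertain because it has a near-identical copy. The class took 1.62% to 1.96% of TPM in treated libraries, against 1.13% and 0.58% in untreated libraries (exact two-sided permutation p = 0.071). The structural RNAs RMRP and RPPH1 took 7.91% to 14.4% of TPM in treated libraries, against 10.6% in untreated replicate 1 and 18.1% in untreated replicate 2. The part of library make-up in these class changes was not tested.

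**Figure D2:**
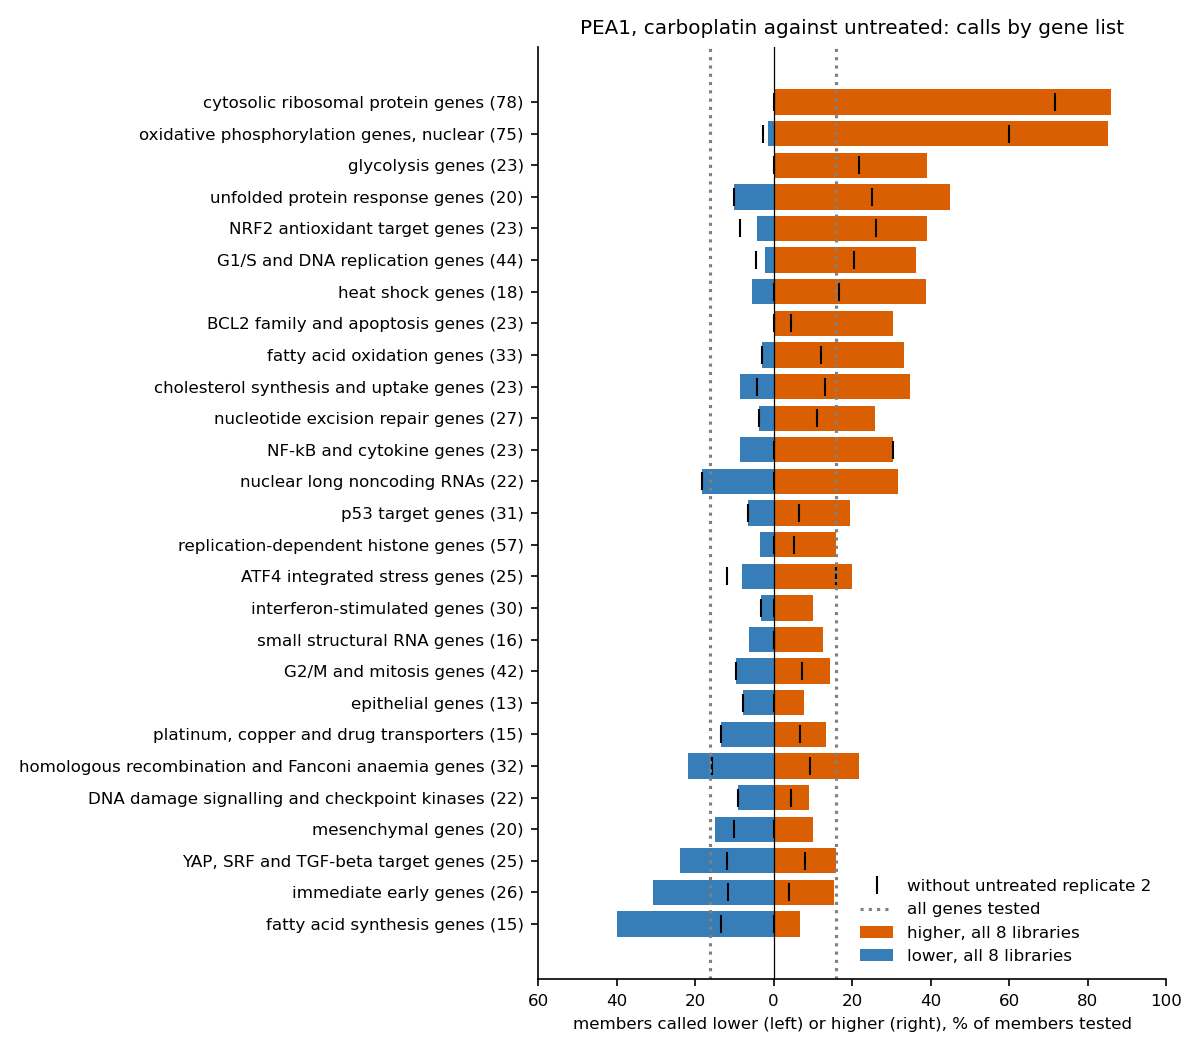
Share of tested members of each gene list (number tested in brackets) that was called higher (right, orange) or lower (left, blue) in carboplatin-treated against untreated PEA1 cells, for lists with at least 10 tested members. Black ticks give the same without untreated replicate 2, and dotted lines give the shares over all genes tested, 16% higher and 16.1% lower; ribosomal protein genes (67 of 78) and oxidative phosphorylation genes (64 of 75) stand at the top.

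Genes of the p53 response are to be read beside 16% of all genes that rose and 16.1% that fell. Their median change was 0.32 with all 8 libraries, against 0.11 over all genes. Without rescaling the shares of all genes were 5.28% and 22.2%. Of 31 tested p53 targets 6 rose and 2 fell, and 2 rose and 2 fell without untreated replicate 2, while 2 rose and 3 fell without rescaling. CDKN1A, the cell cycle inhibitor p21 and a standard p53 target, spanned 2.84 to 7.44 with a median of 4.38 in treated libraries, against 2.11 and 1.63 in untreated libraries. Every treated library was above both untreated libraries, but the change of 0.96 was not called (SE 0.38, adjusted p = 0.086). MDM2, the ubiquitin ligase that degrades p53, changed by -0.09 (adjusted p = 0.86), and GDF15, a secreted stress factor, by -0.58 (adjusted p = 0.55). Among members that were called, SERTAD1 (2.83), FAS (2.35), TRIAP1 (2.16) and RRM2B (2.07) had the largest changes, and of these only TRIAP1 was called without untreated replicate 2 (1.18, adjusted p = 0.049). GADD45A, a stress sensor that is also induced without p53, rose in both fits and is named after its values were seen. It spanned 36.6 to 65.2 with a median of 46.8 in treated libraries, against 14.2 and 16.7 in untreated libraries, and rose by 1.56 (SE 0.27, adjusted p = 0.0069), or 1.62 without untreated replicate 2. POLH, the polymerase that bypasses DNA lesions, fell by 1.65 on the log2 scale (also named after its values were seen).

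Of 32 tested homologous recombination and Fanconi anaemia genes 7 rose and 7 fell, beside 16% and 16.1% of all genes. Without untreated replicate 2 3 rose and 5 fell, and without rescaling 3 rose and 7 fell. UBE2T, the ubiquitin-conjugating enzyme of the Fanconi pathway, spanned 121 to 162 with a median of 141 in treated libraries, against 42.2 and 16.2 in untreated libraries, and rose by 2.38 (SE 0.34, adjusted p = 0.0039), or 1.67 without untreated replicate 2. FANCA, a core complex subunit of the same pathway, spanned 15.3 to 29.4 with a median of 21.2 in treated libraries, against 63.7 and 98.8 in untreated libraries, and fell by 1.89 on the log2 scale (adjusted p = 0.0067). The groups did not overlap for either gene. The changes of RAD51D (1.99) and EXO1 (1.77) were not called without untreated replicate 2. BRCA1 and BRCA2, the central recombination genes, changed by 0.56 and -0.02 (adjusted p = 0.34 and 0.98).

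Of 22 checkpoint and damage-signalling genes 2 rose and 2 fell, against 1 and 2 without untreated replicate 2 and 0 and 3 without rescaling. Over all genes 16% rose and 16.1% fell, and without rescaling 5.28% and 22.2%, also for the excision repair counts below. MDC1, the adaptor that binds phosphorylated histone H2AX at breaks, spanned 5.82 to 10.2 with a median of 9.43 in treated libraries. It stood at 44.6 and 66.7 in untreated libraries and fell by 2.56 on the log2 scale (SE 0.32, adjusted p = 0.0029). TIMELESS, a replication fork protection protein, fell by 1.18 on the log2 scale, while its partner TIPIN (3.25) and the checkpoint kinase CHEK1 (1.93) rose with all 8 libraries, and none of these 3 was called without untreated replicate 2. Of 27 nucleotide excision repair genes 7 rose and 1 fell, against 3 and 1 without untreated replicate 2, and without rescaling 2 rose and 4 fell. CETN2, a subunit of the damage-recognition complex, spanned 49.8 to 77.8 in treated libraries, against 17.3 and 23.4 in untreated libraries, and rose by 1.56 (adjusted p = 0.0059). RPA3 (3.31) and RPA2 (2.51), subunits of the single-strand binding protein, also rose, by 1.37 and 0.82 without untreated replicate 2, the second not called there (adjusted p = 0.051). UVSSA, which acts in transcription-coupled repair, fell by 1.90 on the log2 scale with all 8 libraries but was not called without untreated replicate 2. ERCC1, the incision endonuclease subunit, changed by -0.02 (adjusted p = 0.97).

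Cell cycle genes did not move as a block. Of 44 tested G1/S and replication genes 16 rose and 1 fell, and 9 rose and 2 fell without untreated replicate 2, while without rescaling 4 rose and 3 fell. Of 42 G2/M genes 6 rose and 4 fell, against 3 and 4 without untreated replicate 2 and 2 and 5 without rescaling. Over all genes 16% rose and 16.1% fell, and without rescaling 5.28% and 22.2%, also for the histone counts below. PCNA, the replication clamp, spanned 233 to 409 with a median of 276 in treated libraries. It stood at 136 and 75.1 in untreated libraries and rose by 1.5 (SE 0.30, adjusted p = 0.010). CCNE2, a G1/S cyclin, rose by 1.75 and RRM1, the large subunit of ribonucleotide reductase, by 1.90. RRM1 spanned 73.4 to 126 in treated libraries, against 41.2 and 14.8 in untreated replicates 1 and 2. POLE, the leading-strand polymerase, fell by 1.70 on the log2 scale. RFC2, a clamp loader subunit, rose by 1.71, or by 0.71 without untreated replicate 2, where it was not called (adjusted p = 0.062). CCNE1 rose by 0.84 (adjusted p = 0.027) but missed the threshold without untreated replicate 2 (0.63, adjusted p = 0.10).

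MKI67, the proliferation marker Ki-67, and the mitotic kinase CDK1 went in opposite directions. MKI67 spanned 31.2 to 49.7 with a median of 44.5 in treated libraries, against 424 and 606 in untreated libraries, and fell by 3.56 on the log2 scale (SE 0.26, adjusted p = 0.0012). CDK1 spanned 96.6 to 168 with a median of 140 in treated libraries, against 47.6 and 45.7 in untreated libraries, a rise of 1.49 (SE 0.24, adjusted p = 0.0059). Neither gene showed overlapping groups. MAD2L1 (3.91) and CDC25C (2.38) rose with all 8 libraries and were not called without untreated replicate 2. Replication-dependent histone genes, many of which are near-identical, gave 9 higher and 2 lower of 57, and 3 higher and 0 lower without untreated replicate 2, while without rescaling 0 were higher and 6 lower. HIST1H3E (2.72) and HIST1H4D (1.72) were higher and the linker histones HIST1H1E (-2.05) and HIST1H1D (-1.75) lower, the last with overlapping groups, and none of the 4 was called without untreated replicate 2.

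**Figure D3:**
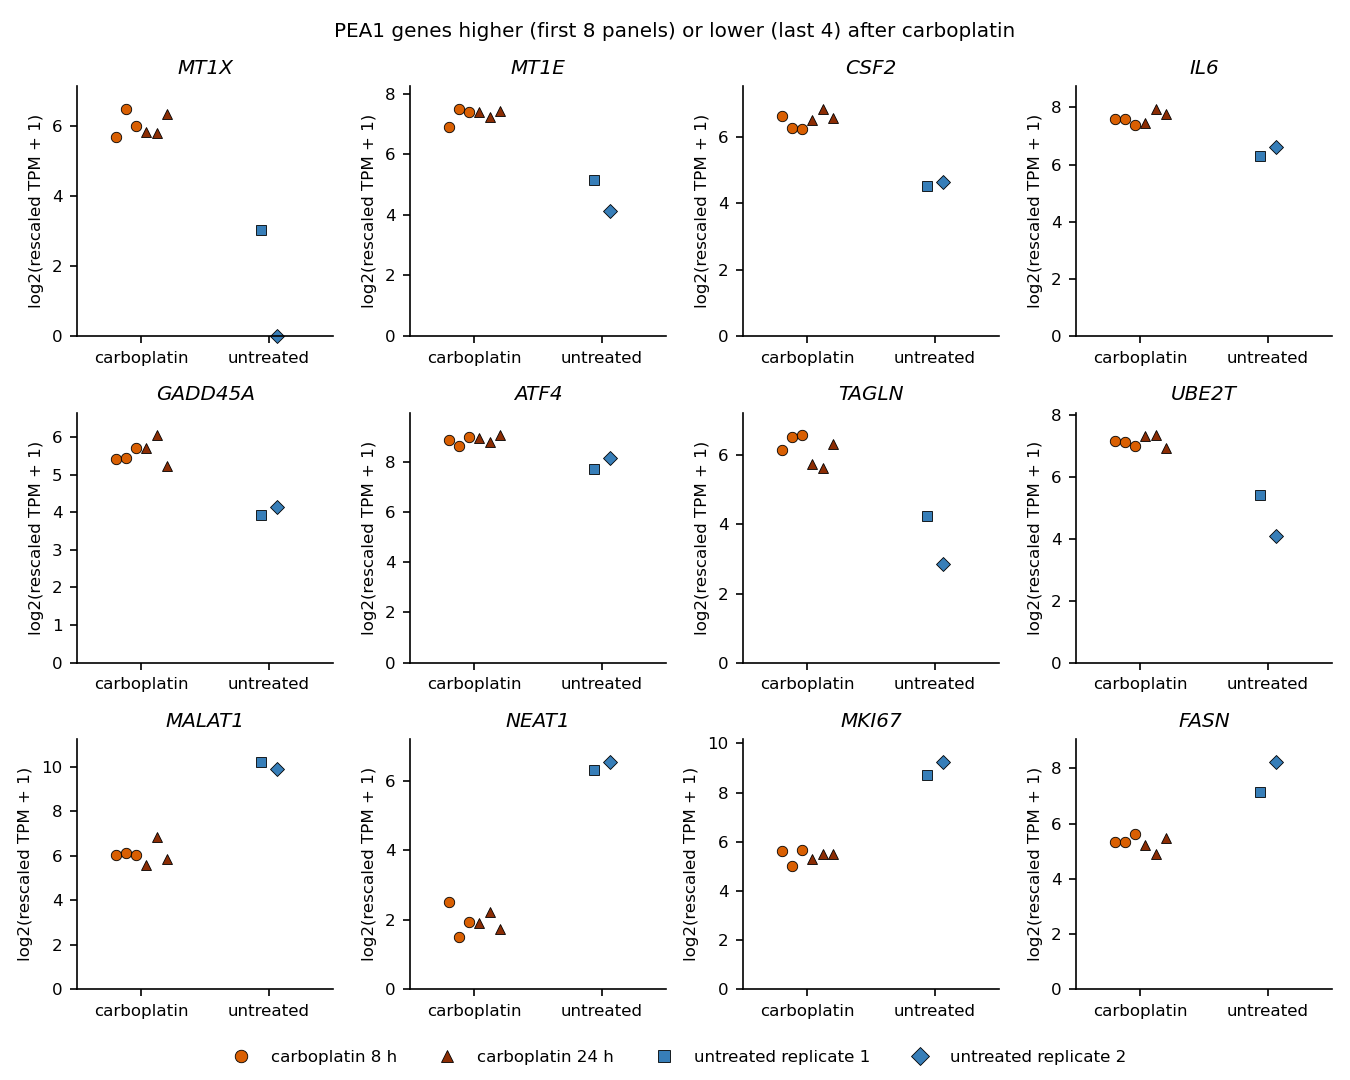
Levels of 12 genes in the 8 PEA1 libraries on the log2(rescaled TPM + 1) scale. Circles and triangles are carboplatin 8 h and 24 h, blue squares and diamonds untreated replicates 1 and 2; treated and untreated libraries do not overlap for any of the 12, and MT1X is listed at 0 in untreated replicate 2.

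Among immediate early genes, which growth factors and stress switch on within minutes, more fell than rose. Over all genes 16% rose and 16.1% fell, and without rescaling 5.28% and 22.2%, also for the YAP, SRF and TGF-beta counts below. Of 26 tested 8 fell, 4 rose and 14 were not called, and 3 fell and 1 rose without untreated replicate 2, while 13 fell and 1 rose without rescaling. EGR1, a zinc-finger transcription factor, spanned 0.29 to 3.75 with a median of 0.56 in treated libraries, against 20.8 and 60.1 in untreated libraries, and fell by 4.24 on the log2 scale (SE 0.52, adjusted p = 0.0027). ZFP36L1, which destabilises AU-rich mRNAs, spanned 11.9 to 19.9 with a median of 16.0 in treated libraries, against 115 and 333 in untreated libraries, and fell by 3.54 (SE 0.40, adjusted p = 0.0023). Its relative ZFP36 fell by 3.12 and FOSB, an AP-1 subunit, by 2.35. FOSL1, another AP-1 subunit named after its values were seen, fell by 1.79 (adjusted p = 0.0047). EGR1, ZFP36L1, ZFP36, FOSB and FOSL1 were not all called without untreated replicate 2. ATF3 was among the genes that rose. It lay at 2.86 to 7.92 in treated libraries, against 0.58 and 0 in untreated libraries, a rise of 2.17 (adjusted p = 0.010). MYC, an oncogenic transcription factor, spanned 178 to 216 in treated libraries, against 183 and 252 in untreated libraries, and was not called (change -0.14, adjusted p = 0.59). Of 25 YAP, SRF and TGF-beta targets 4 rose and 6 fell, against 2 and 3 without untreated replicate 2 and 2 and 9 without rescaling. TAGLN, an actin-binding protein, spanned 48.9 to 94.8 with a median of 74.8 in treated libraries, against 18.0 and 6.17 in untreated libraries, and rose by 2.62 (SE 0.38, adjusted p = 0.0044). CTGF, a matricellular YAP target, spanned 40.2 to 66.3 in treated libraries, against 108 and 202 in untreated libraries, and fell by 1.47 on the log2 scale (adjusted p = 0.012). F3, tissue factor, rose by 1.63 and AJUBA, a LIM-domain protein, fell by 1.63, neither called without untreated replicate 2.

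Of 20 unfolded protein response genes 9 rose and 2 fell, and 5 rose and 2 fell without untreated replicate 2, against 3 and 2 without rescaling. DNAJB9, a co-chaperone of the endoplasmic reticulum, lay at 3.36 to 8.13 in treated libraries, against 0.43 and 0 in untreated libraries, and rose by 2.50 (adjusted p = 0.0045). CALR, the lumenal chaperone calreticulin, is named after its values were seen and spanned 1124 to 1799 with a median of 1256 in treated libraries, against 465 and 398 in untreated libraries, a rise of 1.67 (SE 0.24, adjusted p = 0.0040). HSPA5, the chaperone BiP and a standard marker of this response, went down instead. It spanned 58.2 to 118 with a median of 72.6 in treated libraries, against 190 and 123 in untreated libraries, and fell by 1.01 on the log2 scale (adjusted p = 0.030), also named after its values were seen. PDIA6 (2.09) and MANF (1.68) rose, by 0.99 and 0.79 without untreated replicate 2, MANF not called there, and SYVN1, a ubiquitin ligase of the endoplasmic reticulum, fell by 2.29 on the log2 scale.

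Of 25 integrated stress genes 5 rose and 2 fell, against 4 and 3 without untreated replicate 2 and 1 and 2 without rescaling. ATF4, the transcription factor at the centre of this response and named after its values were seen, spanned 396 to 532 with a median of 479 in treated libraries, against 207 and 287 in untreated libraries, a rise of 0.94 (adjusted p = 0.017). ATF5 fell, at 11.3 to 17.2 in treated libraries, against 39.3 and 88.0 in untreated libraries (change -2.04, adjusted p = 0.0063). MTHFD2, a mitochondrial folate enzyme, rose by 3.12, or 1.06 without untreated replicate 2. ASNS, asparagine synthetase, rose by 2.44 but overlapped the untreated values and was not called without untreated replicate 2. Of 18 heat shock genes 7 rose and 1 fell, and 3 rose and 0 fell without untreated replicate 2. After HSPE1 the largest changes were those of DNAJA1 (2.10), HSPD1 (1.80) and HSPA8 (1.69), of which DNAJA1 alone was called without untreated replicate 2 (1.09, adjusted p = 0.024).

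Of 23 NRF2 targets, the antioxidant genes switched on by electrophiles, 9 rose and 1 fell, and 6 rose and 2 fell without untreated replicate 2, against 4 and 3 without rescaling. NQO1, a quinone reductase and standard NRF2 target named after its values were seen, spanned 215 to 312 with a median of 246 in treated libraries, against 121 and 62.0 in untreated libraries, a rise of 1.56 (adjusted p = 0.0073) and of 1.04 without untreated replicate 2. TXN, thioredoxin, rose by 2.50 and its reductase TXNRD1 by 1.75, and AKR1C3 (2.69), an aldo-keto reductase, was not called without untreated replicate 2. TXN spanned 194 to 388 in treated libraries, against 115 and 18.5 in untreated replicates 1 and 2. TXNRD1 spanned 187 to 294, against 115 and 35.9, so both changes lean on untreated replicate 2. ABCC3, an efflux pump on both this list and that of transporters, spanned 8.19 to 14.3 with a median of 10.6 in treated libraries, against 43.4 and 71.7 in untreated libraries, and fell by 2.27 on the log2 scale (SE 0.31, adjusted p = 0.0036).

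Of 15 platinum, copper and drug transport genes 2 rose and 2 fell, against 1 and 2 without untreated replicate 2. ATOX1, the copper chaperone that can also bind platinum, spanned 89.7 to 134 with a median of 113 in treated libraries, against 41.8 and 17 in untreated libraries, and rose by 2.01 (SE 0.32, adjusted p = 0.0058), or 1.34 without untreated replicate 2. COX17, the mitochondrial copper chaperone, was listed at 0 in untreated replicate 2, and its change of 3.72 was not called without it (0.82, adjusted p = 0.11). ABCC1, another efflux pump, fell by 1.74 on the log2 scale (adjusted p = 0.0087). The copper transporters SLC31A1, ATP7A and ATP7B changed by 0.47, -0.42 and -0.55 and were not called (adjusted p = 0.23, 0.32 and 0.29).

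Of 15 tested fatty acid synthesis genes 6 fell and 1 rose, and 2 fell and 0 rose without untreated replicate 2, while 7 fell and 0 rose without rescaling. FASN, fatty acid synthase, spanned 28.7 to 48.9 with a median of 39.2 in treated libraries, against 140 and 301 in untreated libraries, and fell by 2.37 on the log2 scale (SE 0.32, adjusted p = 0.0035). ACACA, the carboxylase that feeds it, spanned 8.48 to 15.8 in treated libraries, against 31.5 and 25.1 in untreated libraries, and fell by 1.14 (adjusted p = 0.016, named after its values were seen). SREBF1, the transcription factor of this pathway, fell by 1.97, SCD5 by 2.34 and ACSS2 by 1.70 on the log2 scale, none of these 3 called without untreated replicate 2. Of 33 fatty acid oxidation genes 11 rose and 1 fell, and 4 rose and 1 fell without untreated replicate 2, but without rescaling 1 rose and 1 fell. ACAA2 (2.65), ETFA (2.29), HADHB (2.22) and ACADM (2.16) had the largest changes, of which ACAA2 and ETFA were called without untreated replicate 2 (0.79 and 1.18). CPT1A, which loads fatty acids into mitochondria and is named in the title of the study, was near the lower limit of the data, at 0.14 to 2.24 in treated libraries and 0.83 and 0 in untreated libraries (change 0.31, adjusted p = 0.63).

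Of 23 glycolysis genes 9 rose and 0 fell, and 5 rose and 0 fell without untreated replicate 2, against 3 and 1 without rescaling, led by LDHB (2.41), TPI1 (1.58), ENO1 (1.38) and PGK1 (1.20). LDHB spanned 417 to 883 in treated libraries, against 268 and 61.8 in untreated replicates 1 and 2. TPI1, triose phosphate isomerase, spanned 639 to 867 in treated libraries, against 332 and 185 in untreated libraries. TXNIP, a brake on glucose uptake, was not called (1.40, adjusted p = 0.056). Of 23 cholesterol genes 8 rose and 2 fell, against 3 and 1 without untreated replicate 2 and 2 and 2 without rescaling. MVK, mevalonate kinase, rose by 2.40, or 1.42 without untreated replicate 2, while IDI1 (2.60), HSD17B7 (2.07) and FDFT1 (1.65) were not called without it. SREBF2, the master transcription factor of the pathway and named after its values were seen, fell by 1.46 on the log2 scale (adjusted p = 0.0083), at 5.57 to 7.41 in treated libraries, against 20.1 and 19.5 in untreated libraries.

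Of 30 interferon-stimulated genes 3 rose and 1 fell, and 0 rose and 1 fell without untreated replicate 2. Beside the lists of this paragraph, 16% of all genes rose and 16.1% fell with all 8 libraries. IRF7, a transcription factor of the interferon response, lay at 0 to 0.94 in treated libraries, against 16.8 and 82.0 in untreated libraries. It fell by 4.78 on the log2 scale with all 8 libraries (adjusted p = 0.0028) but was not called without untreated replicate 2. IFI44 (1.81) and IFIT3 (1.68) were not called without untreated replicate 2, and ISG20, at 1.20 to 5.64 in treated libraries, was listed at 0 in both untreated libraries. Of 23 BCL2 family and apoptosis genes 7 rose and 0 fell, and 1 rose and 0 fell without untreated replicate 2. In the second fit that gene was CYCS, cytochrome c, with 93.7 to 144 in treated libraries, against 47.5 and 5.39 in untreated libraries, a rise of 2.73 or 1.22. BIRC2 (2.02) and BID (1.66) also rose with all 8 libraries. Of 16 small structural RNAs 2 rose and 1 fell, and 0 rose and 0 fell without untreated replicate 2. RNU12, an RNA of the minor spliceosome, changed by -3.18, SCARNA7 by 2.24 and SCARNA2 by 1.24.

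The libraries carried ovarian and epithelial markers in part only, beside higher levels of mesenchymal markers. The 6 epithelial markers summed to 744.5 to 1124 in treated libraries, against 694.1 and 735.1 in untreated libraries. The 4 mesenchymal markers, mostly VIM, summed to 2423 to 3273 in treated libraries, against 2243 and 2813 in untreated libraries. PAX8 was present throughout, at 46.7 to 54.8 with a median of 48.5 in treated libraries, against 147 and 343 in untreated libraries, and it fell by 2.14 on the log2 scale (SE 0.31, adjusted p = 0.0042). FOLR1, the folate receptor, rose by 2.14, and HOXB7 rose by 1.02 with overlapping groups. SOX17 and EMX2 were listed at 0 in all 8 libraries, and MUC16 did not exceed 0.071. WT1 reached 2.44 at most, MECOM 6.97, EPCAM 8.48 and KRT7 14.1. The keratins KRT8 and KRT18 were abundant, with KRT8 at 196 to 301 in treated libraries, against 157 and 144 in untreated libraries, and KRT18 at 539 to 805, against 517 and 581, while CDH1 did not exceed 1.38. KRT8 rose by 0.74, or by 0.63 without untreated replicate 2, where it was not called (adjusted p = 0.097), and CLDN3 fell by 1.59 on the log2 scale, also not called there (adjusted p = 0.14). VIM, an intermediate filament of mesenchymal cells, spanned 2262 to 3077 in treated libraries, against 1973 and 2673 in untreated libraries, and was not called (0.25, adjusted p = 0.41). FN1 spanned 65.7 to 112 in treated libraries, against 193 and 114 in untreated libraries. CDH2 spanned 39.9 to 72.8, against 52.4 and 18.3, and ZEB1 19.7 to 25.9, against 23.4 and 8.02. Of 20 mesenchymal genes 2 rose and 3 fell, against 0 and 2 without untreated replicate 2. COL1A1, a collagen chain, lay at 3.58 to 11.1 in treated libraries, against 25.4 and 84.4 in untreated libraries, and fell by 2.83 on the log2 scale (adjusted p = 0.0078), TGFB1 fell by 2.28, and SPARC (1.61) and TPM1 (0.92) rose, of which COL1A1 alone was called without untreated replicate 2.

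Markers of other cell types were low except for COL1A1, CD68 and LRRN4. In the fibroblast, leukocyte and mesothelial sets 1 marker each reached 10 in some library, and in the endothelial set 0 did. Of 6 fibroblast markers DCN, LUM, COL3A1 and PDGFRA were listed at 0 in all 8 libraries, and their summed level of 5.27 to 17.4 in treated libraries, against 31.2 and 94.2 in untreated libraries, came from COL1A1 and PDGFRB. The 4 endothelial markers summed to at most 0.35 in any library. Among 5 leukocyte markers LYZ was listed at 0 and PTPRC did not exceed 0.27, while CD3E lay at 9.25 in untreated replicate 2 only. The sum of 23.6 to 71.7 in treated libraries, against 35.1 and 85.5 in untreated libraries, was mostly CD68. Among 4 mesothelial markers CALB2 was listed at 0, while LRRN4 spanned 26.6 to 36.5 in treated libraries, against 63.0 and 147 in untreated libraries, and fell by 1.64 on the log2 scale (adjusted p = 0.0105). In the longer marker lists, CSF1R, ERG, CLDN5 and PDGFRB also fell, at 0 to 6.27 in treated libraries, against 1.15 to 10.7 in untreated libraries. Without untreated replicate 2 CSF1R and PDGFRB were not called, and ERG and CLDN5 were not both called.

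Between 24 h and 8 h of carboplatin no gene passed the threshold. Limma called 0 genes higher and 0 lower of 14172, which is 0%, with 314 at an unadjusted p under 0.05, and a fit of only the 6 treated libraries, with or without a replicate block, also called 0. Values that do not overlap between the 3 libraries at 24 h and the 3 at 8 h were counted as a description. Over all genes 6.24% lay higher and 5.57% lower at 24 h without overlap. Of 44 G1/S and replication genes 17 lay higher and 0 lower, with a median change of 0.29. Of 42 G2/M genes 0 lay higher and 17 lower, with a median of -0.38. Of 57 histone genes 0 lay higher and 31 lower, with a median of -0.63, against 0.01 over all genes.

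The genes of this paragraph were chosen after their values were seen. CCNE2 had 67.9, 75.8 and 73.5 at 24 h, against 38.3, 34.4 and 39.3 at 8 h, a change of 0.94 (SE 0.29, adjusted p = 1). CCNE1 had 45.2, 43.2 and 42.0 at 24 h, against 25.7, 32.9 and 33.6 at 8 h. Both G1/S cyclins were higher in each 24 h library than in any 8 h library. CCNB1, the mitotic cyclin, had 69.5, 78.9 and 62.8 at 24 h, against 119, 140 and 111 at 8 h, a change of -0.80 (SE 0.21, adjusted p = 1). HIST1H4H, a histone H4 gene with near-identical copies, had 317, 313 and 315 at 24 h, against 674, 691 and 632 at 8 h, a change of -1.08 (SE 0.18, adjusted p = 1). Both were lower in each 24 h library than in any 8 h library. With 3 against 3 libraries an exact permutation test cannot go below 0.1 for a single gene. Among the metallothioneins, no tested member was without overlap between 24 h and 8 h.

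**Figure D4:**
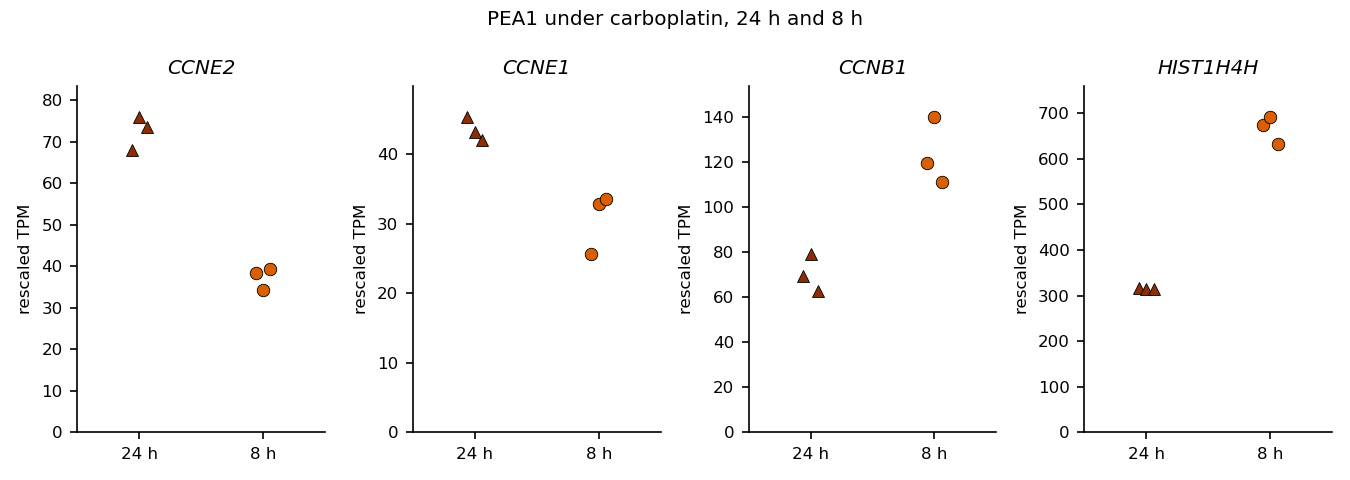
Rescaled TPM of CCNE2, CCNE1, CCNB1 and HIST1H4H in PEA1 after 24 h (triangles, left) and 8 h (circles, right) of carboplatin, 1 point per library. CCNE2 and CCNE1 lie higher and CCNB1 and HIST1H4H lower at 24 h without overlap, and none of the 4 passed the adjusted threshold.

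PEA1 was compared with PEA2, its resistant partner, by the difference of the carboplatin changes. That fit used the 8 PEA1 libraries and the 8 PEA2 libraries that listed at least 12000 genes, 5 treated and 3 untreated, with a rescaling of its own. Of 16078 genes the change was higher in PEA1 for 190, which is 1.18%, and lower for 83, which is 0.516%. Without PEA1 untreated replicate 2, 77 were higher, which is 0.482% of 15963, and 37 lower, which is 0.232%. The rises in ribosomal protein genes were not told apart from those in PEA2 for any of 78 genes. Of 75 oxidative phosphorylation genes, 1 had a higher and 1 a lower change in PEA1. For MALAT1, NEAT1 and MKI67 the difference was not called either. TAGLN, MT1E and ATF3 are given here because their differences were called. Of 26 tested YAP, SRF and TGF-beta targets 1 had a higher change in PEA1 and 0 a lower one. The counts were 1 and 0 of 7 metallothionein genes, and 1 and 0 of 25 integrated stress genes. TAGLN, a member of the lists above, changed by 2.60 in PEA1 and by -0.42 in PEA2, which differ by 3.02 (adjusted p = 0.0041, and 0.018 without PEA1 untreated replicate 2). For MT1E the change was 2.65 in PEA1 and 0.18 in PEA2, and they differed by 2.47 (adjusted p = 0.014), which was not called without PEA1 untreated replicate 2 (adjusted p = 0.087). ATF3 changed by 2.2 in PEA1 and -0.04 in PEA2 (adjusted p = 0.029, and 0.13 without that library).

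The largest differences came from changes in PEA1, in PEA2 or in both. HMGA2, a chromatin architectural protein of growing cells, changed by -2.94 in PEA1 and by 1.17 in PEA2, which differ by -4.11 (adjusted p = 0.0077). IL1B was listed at 0 in treated PEA1, against 6.81 and 9.85 in untreated PEA1, and lay at 68.2 to 108 in treated PEA2, against 32.1 to 56.5 in untreated PEA2. TNFRSF11B, the decoy receptor osteoprotegerin, lay at 80.4 to 112 in treated PEA1, against 110.3 and 81.1 in untreated PEA1, and at 6.01 to 21.1 in treated PEA2, against 283 to 449 in untreated PEA2. The difference for TNFRSF11B was 4.78 (adjusted p = 0.00016). PPP1R17 and RPE65 were listed at 0 in all PEA1 libraries, so their differences rest on PEA2 alone.

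**Figure D5:**
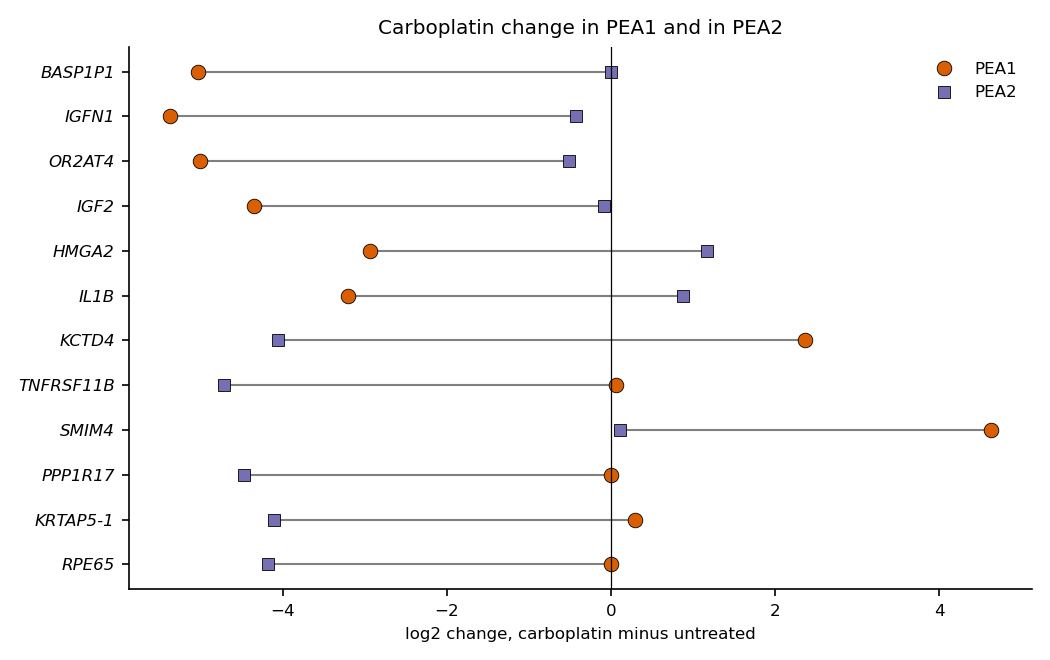
Log2 change with carboplatin in PEA1 (circles) and PEA2 (squares) for the 12 genes with the largest differences that were called with and without PEA1 untreated replicate 2, 6 lower and 6 higher in PEA1. IGFN1, BASP1P1 and OR2AT4 fell in PEA1 by more than 5 on the log2 scale, and TNFRSF11B changed by 0.06 in PEA1 and by -4.72 in PEA2.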

How the data were processed

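Total RNA was sequenced from 54 cultures, intended as paired-end reads. The authors deposited TPM values per gene in a table that its name ties to RSEM, with 25435 genes; TPM are scaled to a fixed total, so they carry no depth, and an exact 0 can be a failed estimate. Per the submitters' processing notes, bcl2fastq 2.18 and the genome build hg19 were used. Whether counting used strand is not given in the sources used here. Antisense genes and near-identical copies are therefore uncertain, and 28 gene symbols had been turned into dates. TPM were rescaled by the median ratio over 10357 genes above 0 in all 8 libraries and tested as log2(value + 1) with limma 3.58.1 (eBayes with trend) in R 4.3.3, with 1 coefficient per group (8 h, 24 h, untreated) and the mean of both treated groups as the main contrast. Genes needed at least 1 TPM in at least 2 libraries. The residual degrees of freedom were 5, with 3.19 prior ones, and p-values were adjusted by Benjamini-Hochberg over all genes tested. Figures were drawn with matplotlib 3.10.9 in Python 3.11.15. Scripts were tested on simulated data.

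Genes were named if they were among the 10 largest changes in each direction of genes that were called, averaged 10 or more rescaled TPM in the higher group, had groups without overlap and lay above 0 in every untreated library, leaving out antisense, locus-number and small RNA names and several copy families. From each of 33 gene lists up to 4 called members with the largest changes were named, and 18 genes were followed regardless of call, of which some results are not reported here. Other names in the text are said to be chosen after their values were seen. The members and lists were chosen with earlier results of these data known. The labels give 8 h and 24 h cultures of the same number the same passage, so the numbers pair them, but their deviations correlated at 0.054, 0.099 and -0.13. The fit of the 6 treated libraries alone and the counts without untreated replicate 2 or without rescaling for lists were added after seeing the data.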

Additional observations from a re-analysis of the deposited data

Results flagged for a closer look

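The carboplatin change differed between PEA1 and PEA2 for 273 genes by limma's test of the difference itself (adjusted p under 0.05). Among the genes with the largest differences, the PEA1 change minus the PEA2 change was -5.04 for BASP1P1, -4.95 for IGFN1, -4.50 for OR2AT4, -4.27 for IGF2, -4.11 for HMGA2 and -4.08 for IL1B. It was 6.42 for KCTD4, 4.78 for TNFRSF11B, 4.52 for SMIM4, 4.47 for PPP1R17, 4.39 for KRTAP5-1 and 4.18 for RPE65. KCTD4 lay at 24.8 to 38.4 in treated PEA1, against 41.8 and 0 in untreated PEA1, so its PEA1 change of 2.36 rests on a value of 0. SMIM4 was listed at 0 in both untreated PEA1 libraries and at 13.8 to 40.4 in treated ones. No group here holds enough libraries for a test of single outlying samples.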

How the results depend on the processing

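The counts of calls depended on single libraries, treated as well as untreated. For carboplatin against untreated they were 4551 with all 8 libraries, 2547 without 8 h replicate 2 and 2587 without 24 h replicate 1. Leaving out those treated libraries also gave the lowest counts at 8 h and at 24 h, respectively. Leaving out each library in turn gave 2368 (without untreated replicate 2) to 7935 (without untreated replicate 1) calls for carboplatin against untreated, 535 to 7683 at 8 h, 609 to 7508 at 24 h, 0 to 2 for 24 h against 8 h, and 114 to 6168 for the difference from PEA2, with the highest of the untreated contrasts always without untreated replicate 1. With untreated replicate 3 included, the calls were 2491, 1104 and 1000. Labels pair replicate numbers by passage between 8 h and 24 h only, and with the untreated libraries they share a number alone. With the replicate block the calls were 1746, 550 and 479, with 0 for 24 h against 8 h and 237 for the difference from PEA2. In a fit of 43 libraries of all 6 lines, 24 h against 8 h gave 2 calls, and with a pseudocount of 0.1 the difference from PEA2 gave 124. Of 3306 alternative values of 202 named results, 2466 were called in the same direction as in the main fit or called in neither fit. Of the others 829 lost the threshold, 7 gained it and 4 changed sign with a call in at least 1 of the fits. Changes of sign without a call in either fit were not counted. An example is BRCA1, at 0.56 with all 8 libraries and -0.40 without untreated replicate 2. The 4 were with untreated replicate 3 included, where F3 changed by -0.80, CTGF by 0.95, RNU12 by 0.32 and SPARC by -0.30; the cause was not tested. Depth is unknown, so no limit of detection can be given.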

Other observations

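Of 11 tested pregnancy-specific glycoprotein (PSG) genes, a family picked after its results were seen, the carboplatin change was higher in PEA1 than in PEA2 for 8 and lower for 0, against 1.18% and 0.516% of all genes. Without PEA1 untreated replicate 2 it was higher for 8 and lower for 0. No PEA1 library exceeded 2.10 rescaled TPM for any of them, so the values behind the difference are those of PEA2. The members are near-identical and their levels are uncertain.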
